A study of Mus musculus with 8 samples.

Results

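The Notch signalling genes of the young ascending thoracic aorta are described here through 10 members: the receptors Notch1, Notch2, Notch3 and Notch4, the ligands Jag1, Dll1 and Dll4, and the target genes Hey1, Hey2 and Heyl. They were chosen by gene symbol, and all 10 were found among the 32285 genes of the matrix. The tissue came from 3 wild-type mice aged 11, 12 and 13 weeks, 1 animal per age, with no treatment, no mutant and no other group, and the labels used here name neither strain nor sex. The tissue was digested with collagenase and elastase, dead cells were removed, and single cells were read by droplet 3′ RNA sequencing. An antibody barcode (hashtag) was used for each age, so by the labels hashtags 1, 2 and 3 stand for the mice of 11, 12 and 13 weeks. All comparisons below are between cell groups of the same pooled preparation, and none is between ages.

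Notch is a receptor that is read by contact between neighbouring cells. A ligand of the Jagged or Delta family on the sending cell pulls on the receptor, ADAM proteases and then γ-secretase cut it, and the freed intracellular part moves to the nucleus. There it joins Rbpj and Maml proteins and switches on repressors of the Hes and Hey families. In arteries the pathway is known for setting arterial identity in endothelial cells through Dll4 and Notch1, for sprouting of capillaries, and for the maturation of mural cells (smooth muscle cells and pericytes), where Notch3 is the receptor best known from human small-vessel disease.

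The cells fell into groups by genes that are not members. An endothelial barcode had at least 3 UMIs (unique molecules counted) of Pecam1, Cdh5 and Gpihbp1 together, a fibroblast barcode had Dcn at 0.3% of its UMIs or more, a pericyte barcode had at least 2 UMIs of Higd1b, Vtn and Cox4i2, and a smooth muscle (SMC) barcode had Acta2, Tagln and Myh11 at 1.5% or more. This gave 701 endothelial barcodes with a median of 2600 UMIs, 1390 fibroblast barcodes with 4522, 82 pericyte barcodes with 5534 and 6694 SMC barcodes with 7324. A further 405 barcodes met several gates and were dropped. A background group of 179 leukocyte barcodes, with a median of 3069 UMIs, is used where a level needs a cell type outside these groups. Levels are counts per 1000000 gene UMIs (CPM). Since 3′ sequencing reads each molecule at its end, they are not divided by gene length, and shares between genes are shares of captured 3′ tags.

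Markers outside the gates were where the labels put them. The 6 other endothelial markers, Kdr and Tie1 among them, summed to 3808 CPM in endothelial barcodes, 36.1 in fibroblast, 80.5 in pericyte and 17.0 in SMC barcodes. The pericyte markers Rgs5 and Ndufa4l2 stood at 3250 and 354 CPM in pericyte barcodes, against 409.8 and 1.99 in SMC barcodes, and Kdr and Tie1 had 0 UMIs in pericyte barcodes. Smooth muscle RNA was present in every group: the 3 smooth muscle markers outside the gate summed to 14.5% of their SMC level in endothelial barcodes, 9.40% in fibroblast, 76.4% in pericyte and 13.1% in leukocyte barcodes. In the other direction, the 6 endothelial markers outside the gate summed in SMC barcodes to 0.446% of their endothelial level. Only 2690 of 9939 barcodes carried a single hashtag, and this share was 74.6% of endothelial, 20.6% of fibroblast, 26.8% of pericyte and 21.0% of SMC barcodes. Over the 9556 genes with enough counts, sums of the same hashtag deviated together hardly more than sums of different hashtags (median correlations 0.009 and -0.005). Whether the hashtag calls separate the 3 mice was not tested, so n = 3 below means 3 hashtag sums. Tests rest on the single-hashtag barcodes, while pooled levels use every barcode of a group. The sums per hashtag held 516862 to 658171 UMIs in endothelial, 376850 to 623142 in fibroblast and 2993304 to 4063165 in SMC barcodes.

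By pooled level, endothelial cells held Notch1, Notch4, Dll4, Jag1, Dll1 and Hey1, and SMC held Notch2, Jag1, Hey2 and Heyl with some Notch3. Fibroblasts held Notch2 and Jag1, and pericytes had the most Notch3. Of the 10 members, 5 were higher and 4 lower in endothelial than in SMC sums at an adjusted p under 0.05 (edgeR quasi-likelihood test, Benjamini-Hochberg over all genes), in a comparison that called 55.2% of 7824 genes (26.3% higher and 28.9% lower). Fibroblast against SMC sums gave 2 members higher, 3 lower and 5 not called, where 43.1% of genes were called (22.3% higher and 20.8% lower). Endothelial against fibroblast sums gave 5 higher, 2 lower and 3 not called, where 41.8% of genes were called (20.1% higher and 21.7% lower). The median log2 fold change of the members was 2.20, 0.50 and 2.75 in these comparisons, while the medians over all genes tested were -0.04, 0.02 and -0.01. All 10 members passed the filter on low counts. Notch1, Notch4, Dll1, Dll4 and Hey1 did so only by their endothelial sums, and Notch3 and Hey2 only by their SMC sums. Notch4, Dll1, Dll4 and Hey1 had at most 8 UMIs in any fibroblast or SMC sum. A member admitted by the group where it is high is likelier to be called. The counts and medians above therefore describe the members and are no test of them against all genes. The comparisons share sums with each other, so their results are not independent.

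**Figure D1:**
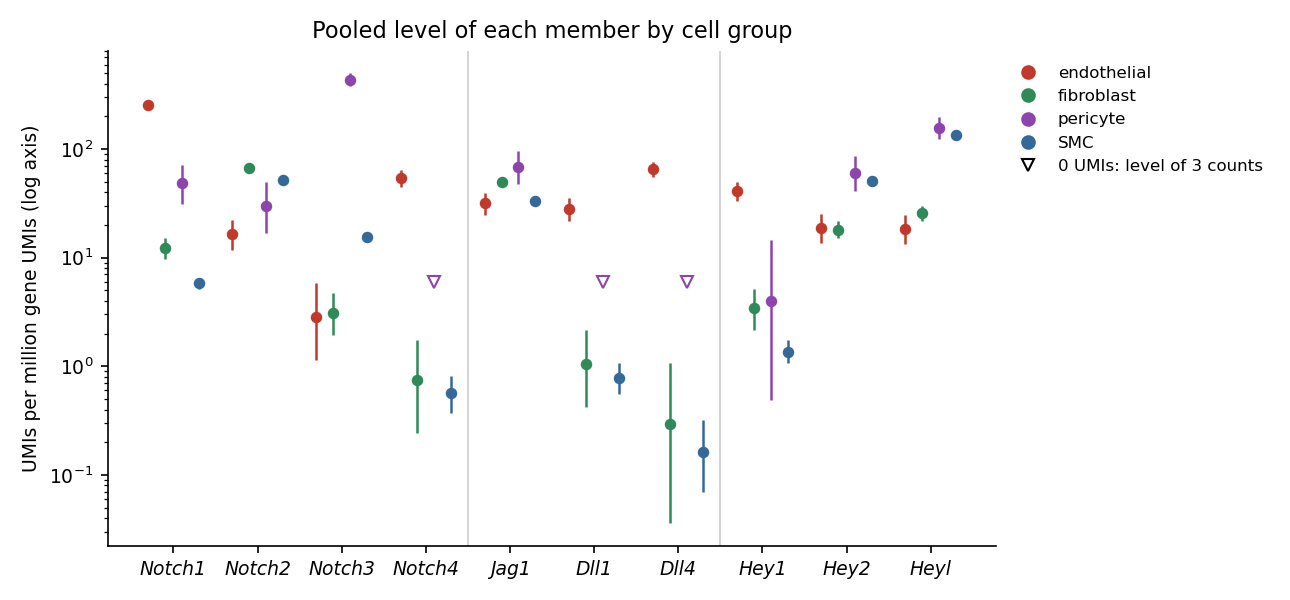
Pooled level of each member in endothelial, fibroblast, pericyte and SMC barcodes, in CPM on a log axis, with exact 95% Poisson intervals that cover counting error only. Open triangles mark genes with 0 UMIs in pericytes, drawn at the level of 3 counts (6.03 CPM). Notch1, Notch4, Dll1, Dll4 and Hey1 are highest in endothelial barcodes, and Notch3 is highest in pericytes at 436 CPM.

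Notch1, the main Notch receptor of endothelium, lies at chr2:26457902-26503822 (GRCm38.p6, the build of all positions here). In endothelial sums it had 305, 263 and 239 CPM in hashtags 1, 2 and 3, against 12.8, 7.96 and 16.4 in fibroblast sums and 7.38, 5.01 and 7.58 in SMC sums. The endothelial values lay far above the rest. Against SMC the difference was 5.17 ± 0.16 on the log2 scale (fold change ± SE here and below; adjusted p = 3.21e-20 by edgeR, higher in 3 of 3 hashtags) and against fibroblasts it was 4.32 ± 0.23 (adjusted p = 7.82e-15). Pooled over all barcodes, Notch1 stood at 254 CPM in endothelial, 48.3 in pericyte, 45.7 in leukocyte, 12.2 in fibroblast and 5.79 in SMC barcodes. The fibroblast and SMC levels, next to each other in that order, did not pass the test (log2 fold change 0.85 ± 0.38, adjusted p = 0.0720), although fibroblasts were higher in 3 of 3 hashtags without overlap. Over 13 alternatives the adjusted p ran from 0.0192 to 0.344, and it passed under the stricter barcode filter (1.42) and the stricter gates (1.09). At least 1 Notch1 UMI was seen in 48.8% of endothelial barcodes and 13.4% of leukocyte barcodes, or 23.8% and 6.15% once each barcode was thinned to 1000 UMIs. The spread within endothelium was wide: 359 barcodes had 0, 204 had 1, and the 63 barcodes with 3 or more held 43.0% of all endothelial Notch1 UMIs.

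Notch2, a receptor found in many tissues, lies at chr3:98013538-98150367 and showed the reverse order. It had 8.11, 11.6 and 13.7 CPM in the endothelial sums of hashtags 1, 2 and 3, 72.2, 63.7 and 71.6 in the fibroblast sums, and 45.3, 51.4 and 51.4 in the SMC sums. All fibroblast values lay above all SMC values, and all endothelial values lay below both. It was lower in endothelial than in SMC sums (log2 fold change -2.27 ± 0.25, adjusted p = 1.35e-08, edgeR) and lower than in fibroblast sums (-2.74 ± 0.28, adjusted p = 7.91e-09). The endothelial barcodes that did not carry a single hashtag were higher, at 30.8 CPM from 20 UMIs. The step from fibroblast to SMC was small (0.46 ± 0.17, adjusted p = 0.0259). That call was lost without hashtag 1 (adjusted p = 0.240) and without hashtag 3 (adjusted p = 0.0978), and DESeq2 gave an adjusted p of 0.192. Leukocytes stood at 62.5 CPM, between the pooled fibroblast level of 67.6 and the pooled SMC level of 52.4 CPM.

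Notch3, the mural cell receptor, lies at chr17:32120820-32166896. Over all barcodes it had 436 CPM in pericytes (217 UMIs, exact interval 380 to 499), against 15.5 in SMC, 3.12 in fibroblast and 2.87 in endothelial barcodes. In the 3 SMC sums it had 18.2, 16.7 and 18.7 CPM, in the endothelial sums 4.87, 1.93 and 3.04, and in the fibroblast sums 1.60, 0 and 0. The SMC values lay above all others, and each endothelial and fibroblast value rests on 3 UMIs or fewer. It was lower in endothelial than in SMC sums (log2 fold change -2.53 ± 0.46, adjusted p = 4.12e-05, edgeR) and lower in fibroblast than in SMC sums (-4.64 ± 0.73, adjusted p = 6.68e-06). The endothelial and fibroblast levels were not told apart (adjusted p = 0.182). The pooled endothelial and fibroblast levels were 18.5% and 20.1% of the SMC level, beside 14.5% and 9.40% for the smooth muscle markers outside the gate. The part of smooth muscle RNA in them was not tested.

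Notch4, a receptor best known from endothelium, lies at chr17:34564286-34588543. It had 51.9, 56.1 and 56.2 CPM in endothelial sums, against 0, 0 and 2.05 in fibroblast sums and 0.246, 0.334 and 1.35 in SMC sums. The endothelial values lay close together and far above the rest. The log2 fold change over SMC was 6.10 ± 0.42 (edgeR, adjusted p = 9.60e-13) and that over fibroblasts 6.09 ± 0.70 (adjusted p = 5.40e-08). Pericytes had 0 Notch4 UMIs, which allows a level of up to 6.03 CPM. The pooled SMC level was 1.05% of the endothelial one, beside 0.446% for the endothelial markers outside the gate.

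The receptors thus made up a different set in each group. Of all UMIs of the 4 receptors, Notch1 gave 77.7% and Notch4 16.4% in endothelial barcodes. Notch2 gave 80.8% in fibroblasts and 70.6% in SMC, where Notch3 added 20.9%. Notch3 gave 84.8% in pericytes (exact 95% interval 79.8 to 88.9%). The receptor sum was 327 CPM in endothelial, 83.6 in fibroblast, 515 in pericyte and 74.3 in SMC barcodes.

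**Figure D2:**
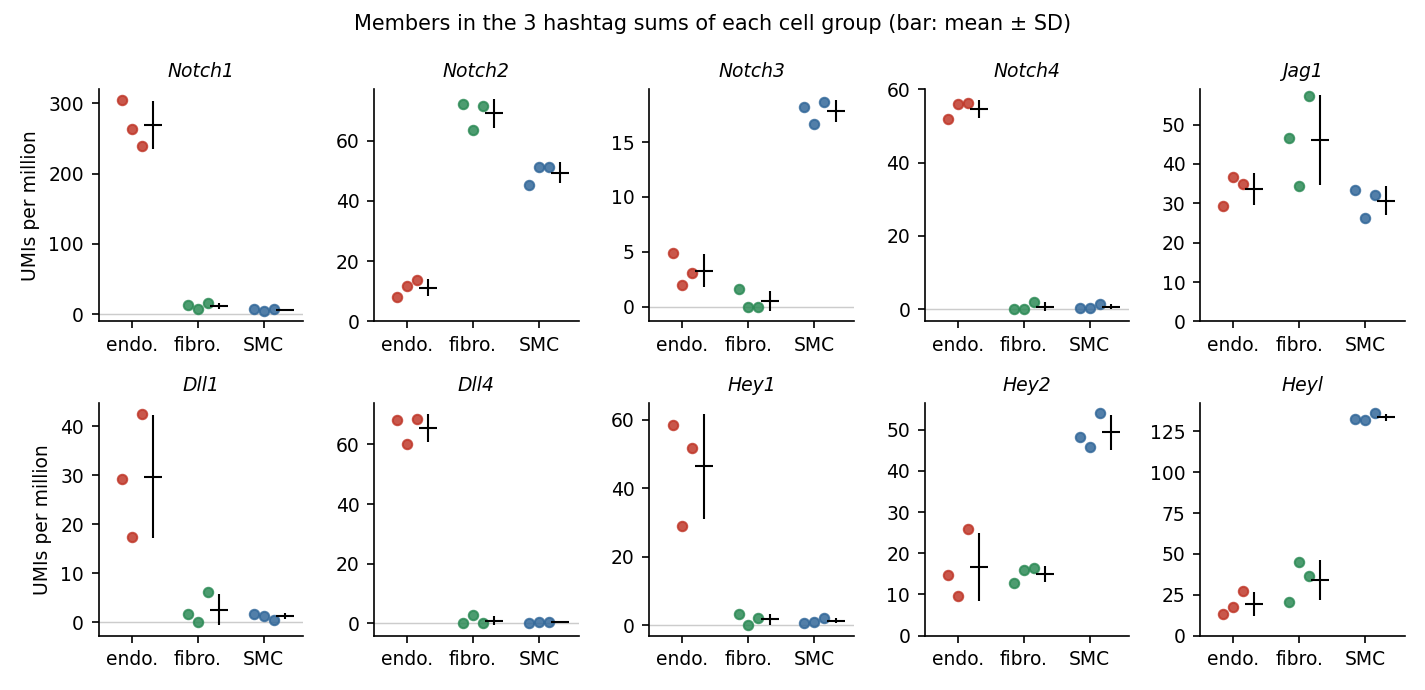
Level of each member in CPM in the 3 hashtag sums (points, hashtags 1 to 3 from left to right) of endothelial, fibroblast and SMC barcodes, with the mean ± SD as a bar (n = 3). The endothelial points of Notch1, Notch4, Dll1, Dll4 and Hey1 lie above all fibroblast and SMC points, and the SMC points of Notch3, Hey2 and Heyl lie above all others.

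Among the ligands, Dll4, a Delta ligand of arteries and sprouting tips, lies at chr2:119325784-119335666. It had 68.1, 60.0 and 68.4 CPM in endothelial sums, against 0, 2.65 and 0 in fibroblast sums and 0, 0.334 and 0.541 in SMC sums. No endothelial value came near the others. It was higher than in SMC (log2 7.39 ± 0.45, edgeR, adjusted p = 7.12e-14) and than in fibroblasts (6.36 ± 0.67, adjusted p = 1.13e-08), sizes that rest on 3 UMIs in all SMC sums and 1 in all fibroblast sums. Pericytes and leukocytes had 0 UMIs, which allows up to 6.03 and 4.57 CPM. Dll4 was seen in 18.0% of endothelial barcodes and 0.120% of SMC barcodes, though SMC barcodes were deeper. After thinning to 1000 UMIs it was seen in 7.85% of endothelial barcodes and 0 of 6694 SMC barcodes.

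Dll1, a Delta ligand, is encoded at chr17:15367354-15376932. It had 29.2, 17.4 and 42.5 CPM in endothelial sums, 1.60, 0 and 6.14 in fibroblast sums, and 1.72, 1.34 and 0.541 in SMC sums. The endothelial values varied among hashtags by more than those of Dll4 did but lay above the rest. It was higher in endothelial than in SMC sums (log2 fold change 4.42 ± 0.47, adjusted p = 6.52e-09, edgeR) and than in fibroblast sums (3.39 ± 0.66, adjusted p = 0.000115). Pericytes had 0 UMIs.

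Jag1, the Jagged ligand that endothelial and smooth muscle cells both make, lies at chr2:137081451-137116520 and had pooled levels from 31.5 to 68.4 CPM over the 4 groups. It had 29.2, 36.8 and 34.9 CPM in endothelial sums, 46.5, 34.5 and 57.3 in fibroblast sums, and 33.5, 26.4 and 32.2 in SMC sums. The ranges overlapped between endothelial and SMC sums. Those means of 33.6 ± 3.95 and 30.7 ± 3.77 (SD, n = 3) gave -0.02 ± 0.21 as log2 fold change (edgeR, adjusted p = 0.952), the single member not called in that comparison. Fibroblast sums were higher than SMC sums without overlap (0.55 ± 0.20, adjusted p = 0.0310), a call that was lost without hashtag 1 (adjusted p = 0.0792), without hashtag 3 (adjusted p = 0.292) and in DESeq2 (adjusted p = 0.160). Endothelial and fibroblast sums were not told apart (-0.57 ± 0.25, adjusted p = 0.0755). The 52 large-vessel endothelial barcodes described below had a pooled level of 103 CPM, against 33.5 in SMC barcodes. That difference was not tested. Leukocytes stood at 7.62 CPM from 5 UMIs, so the levels in the 4 groups were above the one measured in the background group. Jag1 gave 97.4% of the UMIs of the 3 ligands in fibroblasts, 97.3% in SMC and all 34 in pericytes, but 25.3% in endothelial barcodes, where Dll4 gave 52.3%.

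The Hey genes encode basic helix-loop-helix repressors that Notch switches on, and they split by cell group. Hey1, at chr3:8663359-8667038, had 58.4, 29.0 and 51.7 CPM in endothelial sums, 3.21, 0 and 2.05 in fibroblast sums, and 0.738, 1.00 and 2.16 in SMC sums. Hashtag 2 was the low endothelial sum but still far above the other groups. In endothelial sums Hey1 was above SMC with a log2 fold change of 4.98 ± 0.38 (edgeR, adjusted p = 1.27e-11) and above fibroblasts with 4.45 ± 0.58 (adjusted p = 4.58e-07). Leukocytes had 0 UMIs.

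Hey2, at chr10:30832359-30842783, had 14.6, 9.67 and 25.8 CPM in endothelial sums, 12.8, 15.9 and 16.4 in fibroblast sums, and 48.2, 45.8 and 54.1 in SMC sums. All SMC values lay above all others, while the endothelial and fibroblast ranges overlapped. It was lower in endothelial than in SMC sums (log2 fold change -1.66 ± 0.24, adjusted p = 1.02e-06, edgeR) and lower in fibroblast than in SMC sums (-1.78 ± 0.27, adjusted p = 2.98e-06). Endothelial and fibroblast sums were not told apart (0.12 ± 0.39, adjusted p = 0.837).

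The Hey2 promoter window is printed because, of the 8 members with a window, only Hey2 has matches to the Rbpj motif. The window is the RefSeq stretch from 250 bases before to 50 after the gene start, chr10:30842734-30843033 on the minus strand of GRCm38.p6, and capitals mark the letters CGTGGGAA on either strand.
Hey2: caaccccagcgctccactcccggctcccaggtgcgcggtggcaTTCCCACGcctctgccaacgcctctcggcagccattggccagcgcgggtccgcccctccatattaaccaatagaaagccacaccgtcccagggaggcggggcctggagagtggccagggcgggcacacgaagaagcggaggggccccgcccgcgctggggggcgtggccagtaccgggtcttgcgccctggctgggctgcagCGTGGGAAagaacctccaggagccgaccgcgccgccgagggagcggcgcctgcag
The 2 matches begin at positions -207 (opposite strand) and -5 (gene strand) from the gene start. Of 32851 promoter windows of this length, 241 (0.734%) hold the 8 letters on either strand and 4 (0.0122%) hold them more than once. The shorter core TGGGAA, which lies within them, is in 25.6% of windows. Windows were matched for 8 members, and neither string was found in those of Notch1, Notch2, Notch3, Notch4, Jag1, Dll1 and Dll4. No window was available for Hey1 and Heyl, so these 2 Hey genes were not searched. A match is a string of letters and no evidence of binding, and a window without 1 says only that these letters are not in it.

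Heyl, at chr4:123233556-123249870, was the most abundant Hey gene of SMC, fibroblasts and pericytes. It had 13.0, 17.4 and 27.3 CPM in endothelial sums, 20.9, 45.1 and 36.8 in fibroblast sums, and 132.4, 132.3 and 136 in SMC sums. The SMC values lay close together and above all others. It was lower in endothelial than in SMC sums (log2 fold change -2.91 ± 0.21, adjusted p = 2.09e-12, edgeR) and lower in fibroblast than in SMC sums (-2.08 ± 0.20, adjusted p = 9.63e-10). Endothelial against fibroblast sums passed narrowly (-0.83 ± 0.33, adjusted p = 0.0462) with overlapping values. That call was lost without hashtag 1, 2 or 3 (adjusted p = 0.0519, 0.327 and 0.0517), and the sign turned to 0.63 when barcodes that also met the SMC gate were kept in these groups. The pooled endothelial, fibroblast and leukocyte levels of Heyl were 13.7%, 19.0% and 20.4% of the SMC level, beside 14.5%, 9.40% and 13.1% for the smooth muscle markers outside the gate. The part of smooth muscle RNA in these low levels was not tested, and with barcodes over 0.75% smooth muscle UMIs left out, the endothelial level was 15.4 CPM. Hey1 gave 52.4% of the UMIs of the 3 Hey genes in endothelial barcodes and 0.732% in SMC, where Heyl gave 72.0% and Hey2 27.3%.

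**Figure D3:**
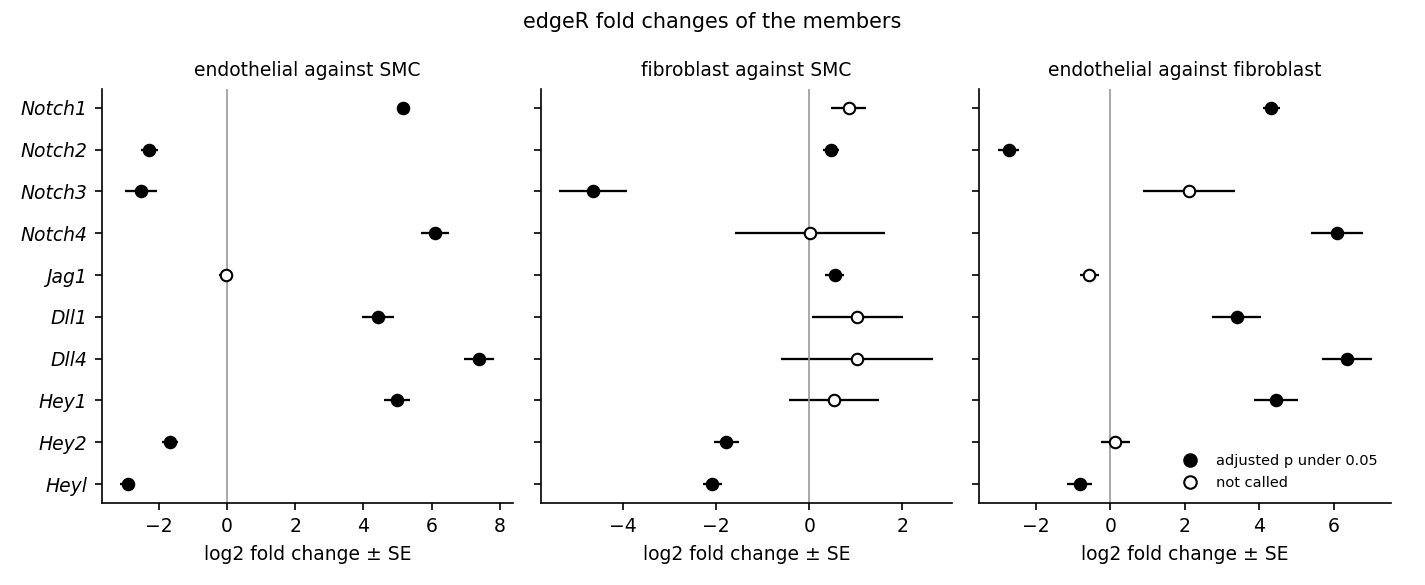
edgeR log2 fold changes ± SE of the 10 members for endothelial against SMC, fibroblast against SMC and endothelial against fibroblast sums, with positive values higher in the group named first. Filled points passed an adjusted p under 0.05 and open points did not. Against SMC, Notch1 lies at 5.17, Heyl at -2.91 and Jag1 at -0.02.

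Pericytes, the mural cells of small vessels, stood out for Notch3 and, when pooled, had Heyl and Hey2 near the SMC levels. The 82 barcodes gave sums of 8, 7 and 7 barcodes per hashtag, below the minimum of 10 set for a test, so their levels are mainly given pooled, with counting error only. Notch3 had 475, 581 and 288 CPM in the pericyte sums, against 18.2, 16.7 and 18.7 in SMC sums, and no value overlapped. The pooled level was 28.1 times the SMC level (95% interval 24.1 to 32.8), 140 times the fibroblast level (89.3 to 231) and 152 times the endothelial level (72.6 to 383). These sizes moved with the choice of barcodes: over the alternatives the ratio was 17.6 to 44.9 against SMC, 109.9 to 643 against fibroblasts and 57.1 to 289 against endothelium. The value of 643 rests on single-hashtag barcodes with 1 fibroblast UMI, and that of 57.1 on keeping barcodes of 2 groups. Notch3 was seen in 75.6% of pericyte barcodes and 9.20% of SMC barcodes, or 35.4% and 1.43% after thinning to 1000 UMIs, against 1.68% and 0.559% in leukocytes. The 35 pericyte barcodes with 3 or more UMIs held 82.0% of their Notch3 UMIs, while 20 barcodes had 0. In SMC 27 of 6694 barcodes had 3 or more and held 17.0% of the SMC Notch3 UMIs.

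Of the other members, Hey1, Hey2, Heyl, Notch4, Dll1 and Dll4 lay nearer to SMC than to endothelial barcodes in pooled level. Notch1 and Notch2 lay between the SMC and endothelial levels, and Jag1 lay above both. Heyl stood at 157 CPM in pericytes and 134.5 in SMC (ratio 1.17, 95% interval 0.921 to 1.46), and Hey2 at 60.3 and 51.0 (ratio 1.18, 0.796 to 1.69). Jag1 was at 68.4 against 33.5 CPM (ratio 2.04, 1.41 to 2.87) and Notch2 at 30.2 against 52.4 (ratio 0.576, 0.322 to 0.952). Notch1 was at 48.3 against 5.79 CPM (ratio 8.33, 5.25 to 12.6), and of its 24 UMIs in pericytes 7 came from hashtag 1, 1 each from hashtags 2 and 3, and 15 from barcodes without a single hashtag. Against endothelial barcodes, Notch1 was lower, with a ratio of 0.190 (0.121 to 0.285), and Hey1 was lower with 0.0982 (0.0117 to 0.364). Pericytes had 0 UMIs of Notch4, Dll1 and Dll4, at least 8.89, 4.62 and 10.8 times below the endothelial levels when 3 counts are taken as the limit. Their smooth muscle markers outside the gate stood at 76.4% of the SMC sum and their capillary markers at 4139 CPM, of which Fabp4 gave 3884. With smooth muscle UMIs under 0.75%, 14 pericyte barcodes remained, with Notch3 at 654 CPM, Heyl at 164 CPM (8 UMIs) and Hey2 at 0, where 3 counts would be 61.3 CPM. The part of smooth muscle RNA in the pericyte levels was not tested.

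A fit that admits sums of 5 barcodes or more, added after the data were seen, gave pericytes a test. Against SMC it called 2 of the 9 members tested, both higher, where 8.89% of genes were called (2.87% higher and 6.01% lower) and the median log2 fold change of all genes was -0.32. These were Notch3 (log2 fold change 4.14 ± 0.30, adjusted p = 1.17e-16, edgeR) and Notch1 (2.70 ± 0.67, adjusted p = 0.00316). Against fibroblasts, where 14.1% of genes were called (4.48% higher and 9.65% lower), Notch3 was higher and Notch2 lower. Against endothelial sums, where 18.3% were called (6.16% higher and 12.1% lower), Notch3 and Heyl were higher and Notch1, Notch4, Dll4 and Hey1 lower. In this fit Notch3 passed the low-count filter only with its pericyte sums, and Notch4, Dll4 and Hey1 only with their endothelial sums. The numbers of calls are therefore no test of the members against all genes. Jag1 and Hey2 had pooled ratios to SMC above 1 but fitted log2 fold changes of -0.07 ± 0.63 and -0.53 ± 0.55, neither called, and Heyl likewise at -0.95 ± 0.38 (adjusted p = 0.121). The single-hashtag pericytes on which this fit rests had 91.3, 26.4 and 0 CPM of Jag1 in hashtags 1, 2 and 3. Heyl had 164, 52.8 and 53.9 CPM there, against 132.4, 132.3 and 136 in SMC sums. Jag1, Hey2 and Heyl thus rest on few counts in this fit.

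**Figure D4:**
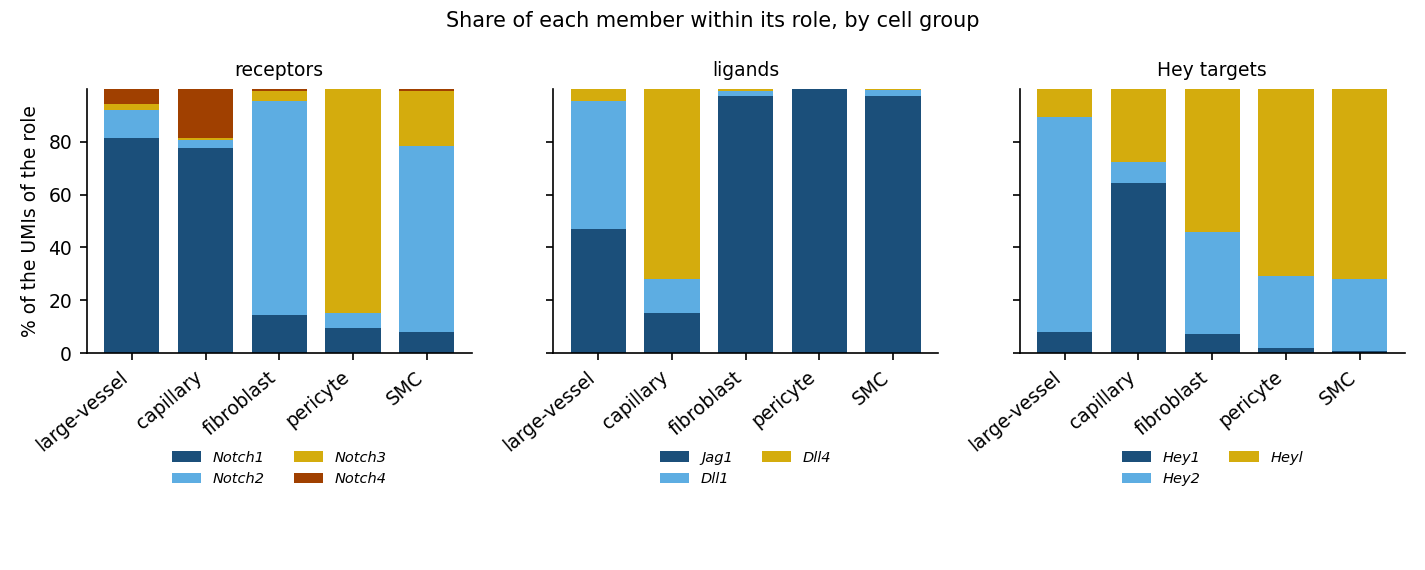
Share in percent of each member among the UMIs of the 4 receptors, the 3 ligands and the 3 Hey genes, pooled over the barcodes of large-vessel endothelial, capillary endothelial, fibroblast, pericyte and SMC groups. Notch3 gives 84.8% of pericyte receptor UMIs, and the main Hey gene is Hey2 in large-vessel endothelium (81.6%), Hey1 in capillary endothelium (64.3%) and Heyl in SMC (72.0%).

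The endothelial gate takes in cells of large and small vessels, and the ligands split between them. Barcodes with at least 2 Vwf UMIs and no Gpihbp1 were called large-vessel (52 barcodes) and those with at least 2 Gpihbp1 UMIs and no Vwf capillary (550 barcodes). Most other markers went with these names: the arterial genes Bmx and Gja5 stood at 467 and 190.1 CPM in large-vessel and 1.16 and 2.32 in capillary barcodes, and the capillary genes Rgcc and Aqp7 were at 0 in large-vessel and 1251 and 222 in capillary barcodes. The arterial genes Sema3g and Sox17 went the other way, at 32.2 and 58.0 CPM in large-vessel and 109.8 and 99.4 CPM in capillary barcodes, and Prox1, a lymphatic gene, stood at 38.7 and 1.16 CPM. Median depth was 4657 UMIs in large-vessel and 2456 in capillary barcodes. Adipocyte markers summed to 0 CPM in large-vessel and 109.8 in capillary barcodes, and their part in the results was not tested. Smooth muscle markers summed to 2429 and 4119 CPM. Only hashtags 1 and 3 gave large-vessel sums of 10 barcodes or more, with 13 and 23, so tests rest on 2 large-vessel and 3 capillary sums.

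Large-vessel endothelium had more Dll1, Jag1 and Hey2, and capillary endothelium more Dll4. Of the 7 members tested, 3 were higher and 1 lower in large-vessel sums, where 16.8% of 5397 genes were called (8.65% higher and 8.1% lower). Jag1, Dll1 and Hey2 passed the low-count filter only by their large-vessel sums, and Dll4 only by its capillary sums. Each called member was thus admitted by the subset where it is high, so the number of calls is no test of the members against all genes. Jag1 had 71.5, 141 and 113 CPM in the large-vessel barcodes of hashtags 1, 2 and 3, against 25.2, 14.5 and 13.2 in capillary sums. Every large-vessel value lay above every capillary value (log2 fold change 2.30 ± 0.60, adjusted p = 0.00134, edgeR). Hey2 had 85.8, 28.2 and 122 CPM in large-vessel barcodes and 4.20, 5.80 and 2.20 in capillary sums, again without overlap (4.83 ± 0.79, adjusted p = 3.41e-08). Dll1 had 57.2, 14.1 and 174 CPM in large-vessel barcodes against 21.0, 20.3 and 13.2 in capillary sums (2.77 ± 0.55, adjusted p = 1.10e-05). Hashtag 3 stood high for Dll1, and hashtag 2, which did not enter the fit, lay within the capillary range.

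Dll4 ran the other way. It had 14.3, 0 and 8.70 CPM in large-vessel barcodes, from 2 UMIs in all, against 83.9, 78.3 and 88.1 in capillary sums (log2 fold change -2.96 ± 0.77, adjusted p = 0.00150, edgeR). Over all barcodes, whatever their hashtags, the pooled levels were 9.67 and 84.3 CPM, a ratio of 0.115 (95% interval 0.0234 to 0.342). Hey1 had 28.6, 14.1 and 0 CPM in large-vessel barcodes and 50.3, 34.8 and 59.5 in capillary sums, and narrowly missed the threshold (-2.31 ± 0.88, adjusted p = 0.0507). Without hashtag 2, which leaves the same large-vessel sums, it passed (adjusted p = 0.0393). Over the 4 alternatives fitted, the adjusted p of Hey1 by edgeR ran from 0.0350 to 0.129. Notch4 had 16.1 CPM in large-vessel and 64.5 in capillary barcodes and was not called (-1.55 ± 0.70, adjusted p = 0.123). Notch1 was at 226 and 269 CPM (-0.24 ± 0.29, adjusted p = 0.687). Notch2, Notch3 and Heyl were too low to be tested here. Within the 3 ligands, Dll1 gave 48.5% and Jag1 47.1% of large-vessel UMIs, while Dll4 gave 71.8% of capillary UMIs.

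**Figure D5:**
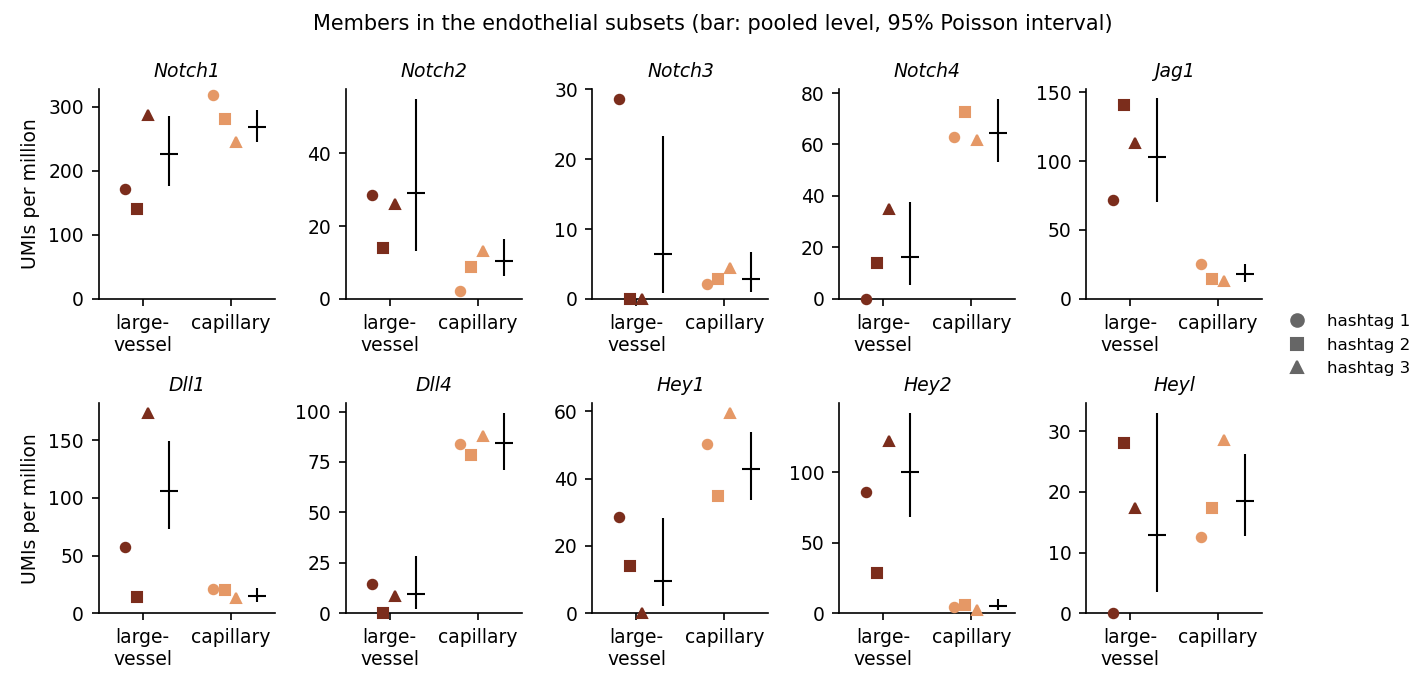
Level of each member in CPM in large-vessel and capillary endothelial barcodes, by hashtag (symbols), with the pooled level and its exact 95% Poisson interval as a bar. Hashtag 2 has 8 large-vessel barcodes and did not enter the test. Jag1 and Hey2 do not overlap between the subsets, being higher in large-vessel barcodes, and Dll4 is lower there in every hashtag.

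Within SMC no member was called between the subset with Tnnt2 or Ptprz1 and no Pln (4182 barcodes) and the subset with Pln and neither of the others (366 barcodes). Of 5 members tested, 0 passed with edgeR, where 0.25% of 8009 genes were called (0.137% higher and 0.112% lower), and 2, Notch2 and Notch3, had an unadjusted p under 0.05. Heyl, the main Hey gene of SMC, had 138, 129 and 130.1 CPM in Tnnt2 or Ptprz1 sums and 125, 117 and 196 in Pln sums (log2 fold change -0.14 ± 0.20, adjusted p = 0.980). Notch3 had 14.9, 12.8 and 17.0 CPM in Tnnt2 or Ptprz1 sums and 6.25, 13.7 and 111 in Pln sums (-1.49 ± 0.48, unadjusted p = 0.00300, adjusted p = 0.289). The Pln value of hashtag 3, from 17 UMIs, stood apart from the others. Notch2 was at 47.3 ± 3.41 and 74.0 ± 38.0 CPM (SD, n = 3 each, -0.65 ± 0.30, unadjusted p = 0.0320, adjusted p = 0.676).

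The other genes of the pathway were counted from a list of 43, of which 28 passed the filter in the main fit. In endothelial against SMC sums 15 were higher and 5 lower, in fibroblast against SMC sums 9 higher and 4 lower, and in endothelial against fibroblast sums 9 higher and 4 lower. The shares called were 71.4%, 46.4% and 46.4%, beside 55.2%, 43.1% and 41.8% of all genes, so the last 2 lie near the background. Some list genes, among them Jag2, Mfng, Nrarp and Numb, passed the low-count filter only by their endothelial sums, where they are high. The shares are therefore no test of the list against all genes. The median log2 fold changes of the 28 were 0.56, 0.27 and 0.09. Among other targets, Nrarp, a feedback inhibitor of Notch, had 68.1, 73.5 and 91.2 CPM in endothelial sums against 0.984, 0.334 and 1.08 in SMC sums (6.28 ± 0.35, adjusted p = 1.61e-14, edgeR). Hes1, the Hes family target, had 77.9, 108 and 129 CPM in endothelial sums against 15.5, 18.4 and 15.7 in SMC sums (2.53 ± 0.19, adjusted p = 5.90e-12). Both endothelial ranges lay wholly above the SMC ranges.

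Of the cleavage genes, 6 of 9 were higher and 0 lower in endothelial than in SMC sums, where 26.3% of all genes were higher and 28.9% lower. Adam10, the protease that makes the first cut of an activated receptor, was at 181 ± 40.6 CPM in endothelial sums and 32.2 ± 2.89 in SMC sums (SD, n = 3, log2 fold change 2.32 ± 0.15, adjusted p = 5.30e-13, edgeR), and Adam17 was higher by 1.62 ± 0.22. Mfng, a sugar transferase that modifies Notch, was mostly seen in endothelial sums, with 38.9, 23.2 and 33.4 CPM against 0.246, 0 and 0 in SMC and 0 in all fibroblast sums. Jag2, the other Jagged ligand, had 58.4, 42.6 and 68.4 CPM in endothelial sums and 2.46, 4.34 and 3.79 in SMC sums (3.88 ± 0.31, adjusted p = 8.05e-11), and 0 in the fibroblast sums. It was higher in the capillary than in the large-vessel subset, like Dll4, with a large-vessel over capillary log2 fold change of -2.89 ± 0.79 (adjusted p = 0.00263). In that fit Jag2 passed the low-count filter only by its capillary sums.

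Rbpj, the DNA-binding partner of the receptor, followed another order. It had 35.7, 61.9 and 60.8 CPM in endothelial sums, 193, 154 and 207 in fibroblast sums, and 80.7, 82.2 and 80.4 in SMC sums, with no overlap between any of the groups. It was lower in endothelial than in SMC sums (log2 fold change -0.77 ± 0.17, adjusted p = 0.000399, edgeR) and higher in fibroblast than in SMC sums (1.16 ± 0.13, adjusted p = 4.43e-08). Numbl, a relative of the Notch inhibitor Numb, was also lower in endothelial than in SMC sums (-1.92 ± 0.46, adjusted p = 0.000791), whereas Numb was higher (1.16 ± 0.26, adjusted p = 0.000458). In large-vessel against capillary sums, 3 of the 22 list genes tested were higher, all of the cleavage group (Aph1b 3.21 ± 0.60, Psen2 2.36 ± 0.68, Adam10 1.19 ± 0.31), and 2 lower (Jag2 and Hes1). The share called, 22.7%, lies near the 16.8% of all genes called there. Aph1b and Psen2 passed the low-count filter only by their large-vessel sums. In the SMC subsets 0 of 26 were called.

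The genes closest to each member in pattern were sought over the 9 sums of the main fit by the Pearson correlation of log2(CPM + 1). Notch1 was closest to Ptbp3 (r = 1.00), Notch4 to Vamp3 (r = 0.995), Dll4 to Aqp7 (r = 0.996), a glycerol channel of capillaries, Dll1 to Castor1 (r = 0.987) and Hey1 to Tnfaip1 (r = 0.9905). Heyl was closest to Oaz1 (r = 0.986), Hey2 to Manbal (r = 0.988), Notch3 to Ctnna3 (r = 0.993) and Notch2 to Celf2 (r = 0.991). Jag1 had the weakest best match, Eci2 (r = 0.933). The 9 sums are 3 cell groups in the same 3 hashtags of 1 pooled preparation, so such values describe group patterns and share depth and preparation.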

How the data were processed

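The authors deposited 1 matrix of raw, unnormalized UMI counts over 48467 barcodes, and per the file headers Cell Ranger 6.0.1 made it. The submitters' processing notes list mm10 as build and Seurat 4.0.5 as a tool. The labels give 4 libraries for gene expression and 4 for hashtags, but all barcodes end in the same suffix, so they were not traced to libraries.

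Barcodes were kept with at least 500 genes, at most 20% mitochondrial UMIs and under 10 haemoglobin UMIs, which left 9939 with a median of 6592 gene UMIs. No doublet caller that uses gene counts was run. Barcodes meeting several gates were dropped (a pericyte barcode was not counted as SMC), and doublets of like cells stay in. Hashtags were called on these barcodes with HTODemux (Seurat 5.3.0, centred log ratios per hashtag, positive quantile 0.99). It found a single hashtag on 2690 barcodes (1025, 721 and 944), several on 1291 and none on 5958. Barcodes with several hashtags entered no main test but stayed in the pooled levels. They were 155 of 701 endothelial, 144 of 1390 fibroblast, 7 of 82 pericyte and 797 of 6694 SMC barcodes. A ratio rule (top hashtag at least 2 times the next, after scaling) gave 461, 371 and 509 of the singles the same hashtag. It gave 0 of them another hashtag and left the rest without a call. UMIs were added up per hashtag and group. The quasi-likelihood test of edgeR 4.0.16 (R 4.3.3; glmQLFit, glmQLFTest) was run on these sums after filterByExpr, using TMM factors and a term for the hashtag, with Benjamini-Hochberg adjustment over all genes and 0.05 as threshold. Levels in the text are CPM of the total, without TMM. A sum needed at least 10 barcodes. The test script was checked on simulated counts. DESeq2 1.42.0, other filters, gates, hashtag calls and each hashtag left out were the alternatives.

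The sums were paired by hashtag because, per the labels, each hashtag marks 1 mouse; the data gave little sign of it. Deviations from the group means correlated at 0.005 to 0.030 between sums of the same hashtag (9 pairs) and -0.028 to 0.022 between others (18 pairs). Nothing in the labels says the hashtag sums were prepared apart, so p-values measure only the spread between these sums. Exact Poisson and Clopper-Pearson 95% intervals, and limits of 3 counts for a count of 0, cover counting error only (scipy 1.17.1). Sequences and positions are from RefSeq, GRCm38.p6. The 10 members in full, and of the 43 pathway genes at most the 4 with the greatest fold change per group and comparison among those called, are named. The members and lists were chosen with earlier results of these data known.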

Additional observations from a re-analysis of the deposited data

How the results depend on the processing

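In endothelial against SMC sums, the 9 called members kept their direction and call under each of the 9 to 13 alternatives in which they could be fitted. The number called was 6 (stricter barcode filter, where fewer members were tested) to 9, and 8 to 9 with a hashtag left out; Jag1 was called in none. Fibroblast against SMC was the least stable comparison: 5 members were called, but 3 with DESeq2, with no low-count filter and with ratio hashtag calls, and 2 to 5 with a hashtag left out, the lowest without hashtag 1. In endothelial against fibroblast sums 7 were called, 4 under the stricter barcode filter and 6 with any hashtag left out; Heyl lost its call in 11 of 13 alternatives, and its log2 fold change reversed to 0.63 with barcodes of 2 groups kept. Large-vessel against capillary calls were 4, or 5 without hashtag 2. Dll1 could be fitted in 3 alternatives and the other called members in 4, so an equal count need not mean the same members. Leaving out the replicate block (the hashtag) gave 9, 5, 6, 4 and 0 members called in the 5 tested comparisons and ended only the call of Heyl between endothelial and fibroblast sums. The pooled log2 ratio of Notch3, pericyte to SMC, was 4.81; it was 4.59 in single-hashtag barcodes, 4.58 under the stricter barcode filter, 5.40 under the smooth muscle RNA ceiling, 5.49 with stricter gates and 4.14 in the fit with a minimum of 5 barcodes; this fit and the single-hashtag ratio were chosen after seeing the data. Pericyte to fibroblast it was 7.13, against 9.33 in single-hashtag barcodes, 8.32 under the ceiling and 8.71 in the added fit. Pericyte to endothelial it was 7.25, against 5.84 with barcodes of 2 groups kept. The cause of these differences was not tested. The planned pericyte tests under other tools, scalings, filters, blocks, ratio calls and left-out hashtags were not run, since no pericyte sum reached 10 barcodes. For the large-vessel subset the fits without hashtag 1 or 3 and with the stricter filter, and for the SMC subsets the ratio calls, were not run for the same reason. Depth limits the pericyte zeros and the 52 large-vessel barcodes most.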

Other observations

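A few SMC barcodes had much Notch3. The 27 SMC barcodes with 3 or more Notch3 UMIs, picked after their values were seen, were about as deep as the rest (median 7139 and 7324 UMIs). They held the pericyte gene Ndufa4l2 at 145 CPM (31 UMIs) against 1.37 in the other SMC barcodes, and Rgs5 at 752 against 408. The other pericyte genes outside the gate went the other way, Kcnj8 at 9.34 (2 UMIs) against 24.4 CPM and Abcc9 at 149.5 against 176.5 CPM. Acta2 was at 13904 against 14587 CPM, and Heyl at 234 against 134. Of those with a single hashtag, 5, 2 and 4 came from hashtags 1, 2 and 3. The pericyte-gate genes were below 2 UMIs in all of them by construction.

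Among the other pathway genes, Nrarp and Hes1 stood at 66.4 and 78.4 CPM in pericytes (33 and 39 UMIs). All 14 Nrarp UMIs of the single-hashtag pericytes came from hashtag 1, so the Nrarp call of the added pericyte fit against SMC (log2 fold change 6.19 ± 0.86, adjusted p = 1.52e-07, edgeR) rests on that hashtag.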
